A study of Mus musculus with 9 samples.

Results

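The genes described here encode lysosomal hydrolases, their activator proteins and lysosomal membrane proteins, 38 genes chosen by symbol from a table of counts for 40879 gene symbols. All 38 passed the filter on low counts and were among the 15351 genes tested. By role they were 10 proteases, 13 glycosidases and sulfatases, 6 lipid hydrolases and activator proteins, and 9 membrane proteins and granulin. RNA came from the spinal cord of wild-type (WT) mice, in 3 groups of 3 libraries. Naive controls stood beside animals with experimental autoimmune encephalomyelitis (EAE, a disease in which immune cells attack the myelin of the cord), which had received either vehicle or GV1001, a telomerase peptide. There is no strain, sex, age, dose, time of sampling or EAE antigen in the labels. They also do not say whether replicates were separate mice or pools, so p-values measure only the spread between these libraries. Between 2 libraries of a group, counting noise alone would give a chi-square per degree of freedom near 1. It was 2.45 to 4.01 in naive, 12.7 to 31.4 in vehicle and 6.66 to 13.1 in GV1001 libraries. How much of this spread was technical was not tested. Values are CPM, that is counts divided by the library total and scaled to a common size, from a 3′ library, and where 3 values are given they are those of replicates 1, 2 and 3.

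Lysosomes are acidic organelles in which proteases, glycosidases, sulfatases and lipases break down material taken in from outside the cell or delivered from within it. Every cell of the cord has them, and phagocytes (resident microglia and blood-derived macrophages) carry the most, because they digest myelin and dead cells. Many of the genes share a short DNA element, the CLEAR element, bound by transcription factors of the TFEB family, and many lysosomal enzymes reach the organelle through a mannose 6-phosphate tag.

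The promoters of 5 members are shown. Ctsd, Ctsa, Gla and Mcoln1 are printed because they hold the core of this element and fell on both sides of the slope test described below: the former 3 rose with phagocyte markers in edgeR, and the slope of Mcoln1 did not pass the test. The call of Gla was less firm, with an adjusted p of 0.0675 in DESeq2 and of 0.642 in edgeR without vehicle replicate 1. Ctsc is printed for another motif. Sequences are the 250 bases before an annotated start of the gene, from RefSeq on build GRCm38.p6, read 5′ to 3′ on the gene's strand. Ctsa had 2 windows, of which 1 held TCACGTGA, and that window is printed. Capitals mark TCACGTGA (the core of the CLEAR element), any other CACGTG, and GAGGAAGT or its reverse complement (a form of the site of the myeloid factor PU.1).
Ctsd (chr7:142387828-142388077, minus strand): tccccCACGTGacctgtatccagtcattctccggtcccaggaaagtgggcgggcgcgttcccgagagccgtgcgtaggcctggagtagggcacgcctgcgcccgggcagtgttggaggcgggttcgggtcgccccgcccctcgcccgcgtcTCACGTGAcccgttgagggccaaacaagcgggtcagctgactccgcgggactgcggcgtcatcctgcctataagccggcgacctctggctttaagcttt
Ctsa (chr2:164833523-164833772, plus strand): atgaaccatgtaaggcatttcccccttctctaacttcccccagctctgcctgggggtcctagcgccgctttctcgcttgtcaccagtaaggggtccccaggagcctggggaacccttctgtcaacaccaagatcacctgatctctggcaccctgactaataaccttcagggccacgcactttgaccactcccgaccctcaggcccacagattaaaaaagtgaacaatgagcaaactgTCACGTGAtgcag
Gla (chrX:134601006-134601255, minus strand): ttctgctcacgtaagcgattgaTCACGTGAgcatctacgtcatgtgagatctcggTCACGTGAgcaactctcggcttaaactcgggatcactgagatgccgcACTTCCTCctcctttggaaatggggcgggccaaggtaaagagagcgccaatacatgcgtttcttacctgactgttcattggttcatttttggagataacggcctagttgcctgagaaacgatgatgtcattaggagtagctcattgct
Mcoln1 (chr8:3500269-3500518, plus strand): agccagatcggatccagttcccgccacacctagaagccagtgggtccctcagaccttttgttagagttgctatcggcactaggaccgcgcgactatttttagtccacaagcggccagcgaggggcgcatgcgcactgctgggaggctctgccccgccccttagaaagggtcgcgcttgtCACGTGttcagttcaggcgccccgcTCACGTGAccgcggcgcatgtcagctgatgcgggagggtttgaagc
Ctsc (chr7:88277835-88278084, plus strand): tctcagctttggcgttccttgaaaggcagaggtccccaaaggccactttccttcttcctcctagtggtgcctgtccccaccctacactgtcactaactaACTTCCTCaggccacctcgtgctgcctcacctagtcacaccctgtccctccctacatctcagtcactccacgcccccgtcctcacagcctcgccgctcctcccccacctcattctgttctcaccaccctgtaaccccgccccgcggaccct
TCACGTGA began 99 bases before the start of Ctsd, 13 before Ctsa, 46 before Mcoln1, and 228 and 195 before Gla. In windows of 250 bases before to 50 bases after the start, searched on both strands, TCACGTGA was found in these 4 of the 33 members with a window, 12.1%, against 1.12% of 27025 genes. CACGTG, which every TCACGTGA contains, was found in 11 of 33 members, 33.3%, against 8.09% of genes. GAGGAAGT was found in 3 of 33 members (Ctsc, Gusb and Gla), 9.09%, against 3.69% of genes. A match is a description of these letters and not a binding site.

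Total counts per library ranged from 5247246 to 6174870, and the lowest count of a member in a library was 11, so no member lay at or below the floor of 3 counts. The cord's own cells were present in every library: the summed level of 8 oligodendrocyte markers was 12900 to 19400 CPM and that of 8 neuron markers 4850 to 7320 CPM. A phagocyte score was computed for each library as the mean log2 CPM of 20 phagocyte markers, none of them a member, set to 0 at the naive mean. It was -0.22, 0.12 and 0.10 in naive libraries, 4.18, 1.28 and 2.71 in vehicle libraries, and 0.31, 2.61 and 1.16 in GV1001 libraries. Vehicle replicate 1 was the highest library for 20 of 20 phagocyte markers and vehicle replicate 2 the lowest of the vehicle libraries for 20 of 20, so the vehicle group was spread widely. The 10 T cell markers moved with the same libraries, with a summed level of 2.49 to 3.79 CPM in naive libraries, 5.91 to 87.4 CPM with vehicle and 3.21 to 27.7 CPM with GV1001, and 7 of them were at 0 in the naive group. Skeletal muscle markers summed to 21.2 to 205 CPM in naive libraries, 18.7 to 452 CPM with vehicle and 367 to 3870 CPM with GV1001. Schwann cell markers, from nerve roots, summed to 952 to 1480, 567 to 2450 and 2350 to 3410 CPM in the same order. B and plasma cell markers summed to 15.0 to 20.2, 22.9 to 86.6 and 18.5 to 25.3 CPM, with Cd79a at 0 in every library. Neutrophil markers summed to 43.8 to 173, 128 to 304 and 233 to 431 CPM, and meningeal fibroblast markers to 507 to 876, 605 to 1730 and 950 to 1500 CPM. Red cell markers reached 4860 CPM in vehicle replicate 2 and 254 to 720 CPM in the other libraries. The part of these cell types in the results below was not tested except where a value is given. In bulk tissue, more cells of a type and more RNA per cell cannot be told apart. Reads of some members may hold those of other genes, because no source used here says whether strand was counted. The ends of Ctsb, Ctsa, Lamp1, Npc1 and Arsb overlap transcripts on the opposite strand (Fdft1, Neurl2 with Pltp, Grtp1, Rmc1 and Gm26527). The end of Cd63 matches the pseudogene Cd63-ps over 400 bases at 99.0% identity, so those 6 levels are uncertain, though not equally. Over all libraries Pltp had 3424 counts beside 4368 of Ctsa, and Rmc1 712 beside 6432 of Npc1. Fdft1 had 1535 beside 27982 of Ctsb, and Grtp1 233 beside 38867 of Lamp1. Gm26527 and Cd63-ps were not among the counted symbols.

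The 38 genes together took 0.47%, 0.49% and 0.472% of all counts in naive libraries. Their share was 1.34%, 0.633% and 0.914% in vehicle libraries and 0.569%, 0.724% and 0.56% in GV1001 libraries. Every EAE library thus lay above every naive library, and the vehicle and GV1001 libraries overlapped. The sum leaned on Psap, with 1326, 1208 and 1283 CPM of 4696, 4902 and 4716 CPM in naive libraries. In GV1001 replicate 1 Psap held 2061 of 5690 CPM, and without Psap that library would fall within the naive range. The mean log2 CPM of the members, which weighs genes equally, was 5.45, 5.57 and 5.51 in naive libraries. It was 5.64 in GV1001 replicate 1, the lowest EAE library by this measure. Of the 38 genes, 32 had their highest level in vehicle replicate 1, 4 in vehicle replicate 3 and 2 in GV1001 replicate 1. Within the vehicle group, replicate 2 was the lowest library for 35 of 38, and within the GV1001 group replicate 2 was the highest for 28 of 38.

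**Figure D1:**
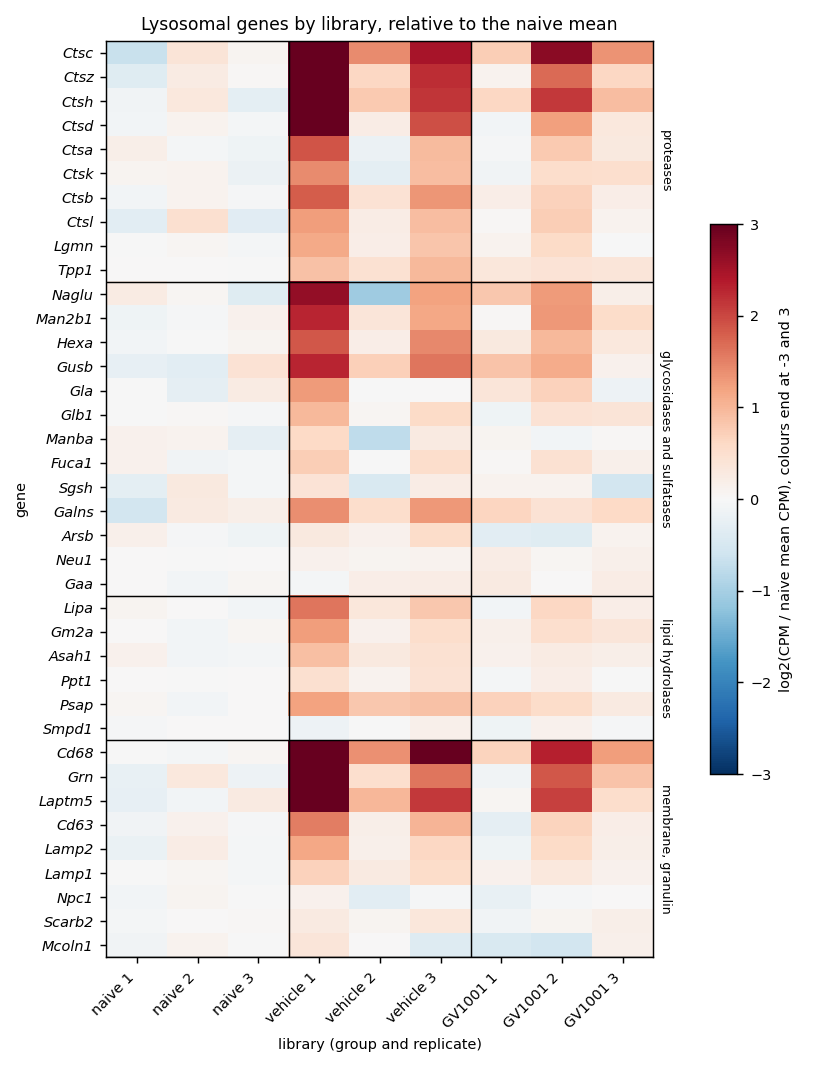
Level of the 38 genes in the 9 libraries, as log2 of CPM over the naive mean CPM of the gene (colours end at -3 and 3), with rows grouped by role and columns ordered by group and replicate. Vehicle replicate 1 holds the highest level of 32 of the 38 genes, and the rows of Smpd1, Neu1 and Gaa vary little.

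EAE with vehicle against naive compares diseased animals given vehicle with naive controls, and cannot separate the disease from the vehicle or from other tissue in the libraries. No member passed an adjusted p of 0.05 in edgeR's quasi-likelihood test, in a table where 0.0195% of all genes did. At an unadjusted p of 0.05, 27 of 38 were higher and 0 lower, against 11.3% and 8.07% of all genes. The 3 vehicle libraries all lay above the 3 naive libraries for 24 of 38 genes, against 13.6% of all genes. The median log2 fold change was 0.79 over the members and near 0 over all genes. With vehicle replicate 1 left out the median was 0.44, and 19 members were higher at an unadjusted p of 0.05, against 8.45% of all genes. With vehicle replicate 2 left out 28 of 38 members passed the adjusted threshold, where 7.46% of genes passed in that direction. DESeq2 called 15 members higher, where it called 5.36% of all genes higher, and limma-voom called 0 members and 0.0% of all genes, with 23 members higher at an unadjusted p of 0.05 (9.04% of genes). Without the low-count filter edgeR called 13 members higher (1.67% of genes). With skeletal muscle and Schwann cell scores as covariates it called 24 (6.58% of genes).

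**Figure D2:**
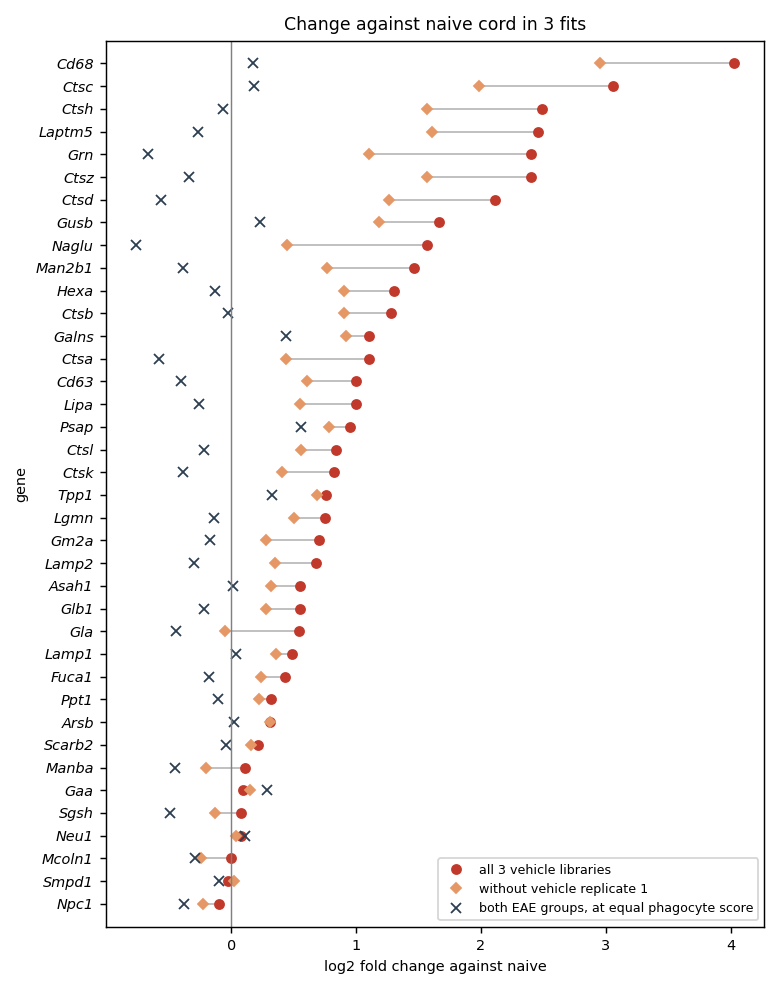
Log2 fold change against naive (x axis) for each of the 38 genes (y axis): circles for the 3 vehicle libraries, diamonds without vehicle replicate 1, crosses for both EAE groups at an equal phagocyte score. Cd68 stands at 4.03, and at 2.95 when vehicle replicate 1 is left out, while Psap (0.95 and 0.78) and Tpp1 (0.76 and 0.69) move little.

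The proteases had a median log2 fold change of 1.19 in EAE with vehicle, with all 10 above 0. Cathepsin C (Ctsc), a dipeptidyl peptidase that activates serine proteases of leukocyte granules, had 7.13, 14.7 and 11.9 CPM in naive, 190, 30.1 and 62.1 CPM in vehicle, and 18.9, 73.0 and 28.8 CPM in GV1001 libraries. All 6 EAE libraries were above all naive libraries, with a log2 fold change of 3.06 ± 0.72 (SE; adjusted p = 0.0725, edgeR) in vehicle against naive. Cathepsin H (Ctsh), an aminopeptidase, had 17.3, 23.1 and 15.0 CPM in naive, 199.9, 31.8 and 81.9 CPM in vehicle, and 28.5, 79.9 and 35.3 CPM in GV1001 libraries. Its EAE libraries also lay wholly above the naive libraries (log2 fold change 2.49 ± 0.61, adjusted p = 0.0772, edgeR). Cathepsin Z (Ctsz), a carboxypeptidase, had 23.3, 35.7 and 31.0 CPM in naive, 296, 45.9 and 139.5 CPM in vehicle, and 32.3, 97.2 and 46.1 CPM in GV1001 libraries. GV1001 replicate 1 fell among the naive libraries, and the log2 fold change in vehicle against naive was 2.40 ± 0.60 (adjusted p = 0.0772, edgeR). Without vehicle replicate 1 the changes of Ctsc, Ctsh and Ctsz were 1.98, 1.57 and 1.57. Cathepsin D (Ctsd), the main aspartic protease of the lysosome, had 281, 321 and 286 CPM in naive, 2380, 347 and 1124 CPM in vehicle, and 279, 689.6 and 371 CPM in GV1001 libraries. Vehicle replicate 1 was above every other library, vehicle replicate 2 was close to the naive libraries, and the log2 fold change was 2.11 ± 0.56 with vehicle replicate 1 and 1.26 without it (adjusted p = 0.0841 and 0.179, edgeR). Cathepsin B (Ctsb), a cysteine protease, had 327, 376 and 339.7 CPM in naive, 1230, 469.8 and 877 CPM in vehicle, and 400.5, 557 and 398 CPM in GV1001 libraries. It was higher in every EAE library than in any naive library (log2 fold change 1.28 ± 0.29, adjusted p = 0.0703, edgeR).

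The other 5 proteases differed less between groups. Cathepsin A (Ctsa), a carboxypeptidase that also protects the enzymes of Glb1 and Neu1, had 57.7 ± 6.66 CPM in naive libraries, 125 ± 81.8 CPM with vehicle and 75.5 ± 22.2 CPM with GV1001 (SD, n = 3, as for all means below). Cathepsin L (Ctsl), a cysteine protease, had 115 ± 40.5, 209.7 ± 71.3 and 144 ± 41.0 CPM in the same order. Legumain (Lgmn), which cleaves after asparagine, had 117 ± 4.96, 200.5 ± 61.3 and 139 ± 30.3 CPM, and its vehicle libraries did not overlap the naive ones. Cathepsin K (Ctsk), known for collagen breakdown by osteoclasts, was scarce, with 6.95 ± 0.71, 12.5 ± 6.42 and 8.78 ± 2.05 CPM. Tripeptidyl peptidase 1 (Tpp1), lost in a childhood form of human neuronal ceroid lipofuscinosis, had 138, 137 and 135.5 CPM in naive, 252, 189 and 269 CPM in vehicle, and 174, 182 and 177 CPM in GV1001 libraries. The 3 groups of Tpp1 did not overlap, in the order naive, GV1001, vehicle.

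Glycosidases and sulfatases had a median log2 fold change of 0.54 in EAE with vehicle against naive. The beta-glucuronidase Gusb had 8.73, 8.29 and 14.1 CPM in naive, 50.6, 17.0 and 31.6 CPM in vehicle, and 18.9, 22.4 and 11.3 CPM in GV1001 libraries, and the vehicle libraries lay above the naive ones (log2 fold change 1.66 ± 0.41, adjusted p = 0.0772, edgeR). Naglu, which acts on heparan sulfate, had 6.59, 5.87 and 4.33 CPM in naive, 34.7, 2.67 and 12.9 CPM in vehicle, and 9.82, 13.6 and 6.32 CPM in GV1001 libraries. Its lowest library of all was vehicle replicate 2, so the groups overlapped (log2 fold change 1.57 ± 0.69, adjusted p = 0.241, edgeR), and without vehicle replicate 1 the change was 0.45. The lysosomal alpha-mannosidase Man2b1 had 18.5, 19.9 and 22.2 CPM in naive, 97.9, 25.9 and 45.15 CPM in vehicle, and 20.8, 49.5 and 29.5 CPM in GV1001 libraries. Vehicle exceeded naive in every library (log2 fold change 1.46 ± 0.45, adjusted p = 0.112, edgeR), and without vehicle replicate 1 the change was 0.77. Hexa, the alpha subunit of the hexosaminidase that degrades GM2 ganglioside, had 40.6, 42.6 and 45.5 CPM in naive, 155, 49.55 and 116 CPM in vehicle, and 52.7, 84.6 and 53.1 CPM in GV1001 libraries. All 6 EAE libraries of Hexa were above the naive libraries (log2 fold change in vehicle 1.30 ± 0.35, adjusted p = 0.0862, edgeR).

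The other 9 glycosidases and sulfatases had smaller or less regular differences. The acid alpha-glucosidase Gaa, which degrades glycogen, had 154, 143 and 157 CPM in naive, 146, 173 and 175 CPM in vehicle, and 183, 153 and 176 CPM in GV1001 libraries. The sialidase Neu1 had 62.9, 61.8 and 63.5 CPM in naive, 68.8, 66.9 and 67.5 CPM in vehicle, and 72.9, 65.1 and 69.3 CPM in GV1001 libraries. Its 6 EAE libraries were above the 3 naive libraries, but by a log2 fold change of 0.08 ± 0.10 in vehicle against naive (adjusted p = 0.706, edgeR). Sgsh, a sulfatase of heparan sulfate, was scarce, with 4.28, 6.39 and 5.05 CPM in naive, 7.00, 3.81 and 6.10 CPM in vehicle, and 5.67, 5.64 and 3.56 CPM in GV1001 libraries. For Gaa and Sgsh the 3 groups overlapped, with log2 fold changes in vehicle against naive of 0.09 ± 0.10 and 0.08 ± 0.32. Galns, a sulfatase of keratan and chondroitin sulfate, had 2.89 ± 0.81, 6.29 ± 1.83 and 4.26 ± 0.34 CPM in naive, vehicle and GV1001 libraries, without overlap between the naive and the EAE libraries. Fuca1, a fucosidase, had 63.6 ± 5.46, 87.3 ± 21.9 and 74.2 ± 11.1 CPM. The beta-galactosidase Glb1 had 14.3 ± 0.31, 21.4 ± 6.58 and 17.0 ± 3.45 CPM. The alpha-galactosidase Gla had 8.99 ± 1.61, 13.2 ± 7.34 and 11.4 ± 3.18 CPM, with 21.7 CPM in vehicle replicate 1 and 8.10 to 14.5 CPM in the other EAE libraries. The beta-mannosidase Manba had 8.01 ± 1.16, 8.79 ± 3.70 and 8.11 ± 0.48 CPM, and the groups overlapped. Arsb, a sulfatase of dermatan and chondroitin sulfate, had 24.8 ± 2.47, 31.4 ± 4.65 and 21.99 ± 3.97 CPM, and its highest GV1001 library was below its lowest vehicle library.

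Among the lipid hydrolases and activators, the prosaposin gene Psap stood apart in level. Psap encodes the precursor of the saposins, which lift sphingolipids out of membranes for the hydrolases, and had 1326, 1208 and 1283 CPM in naive, 2946, 2222 and 2334 CPM in vehicle, and 2061, 1855 and 1530 CPM in GV1001 libraries. The 3 groups did not overlap, in the order naive, GV1001, vehicle, as for Tpp1. Psap had the smallest p of the 38 genes in vehicle against naive, with a log2 fold change of 0.95 ± 0.15 (adjusted p = 0.0629, edgeR), and Tpp1 came next with 0.76 ± 0.12 (adjusted p = 0.0629, edgeR). These changes were smaller than those of Ctsb, Ctsc, Ctsd, Ctsh and Ctsz. Vehicle replicate 2 lay above the naive libraries for Psap and Tpp1 and for those cathepsins alike. Without vehicle replicate 1 the changes of Psap and Tpp1 were 0.78 (adjusted p = 0.0592, edgeR) and 0.69 (adjusted p = 0.0595, edgeR). DESeq2 gave adjusted p = 1.67e-07 for Psap and 1.25e-05 for Tpp1. Lipa, the acid lipase of cholesteryl esters and triglycerides, had 25.2 ± 1.47, 50.9 ± 23.0 and 30.6 ± 7.41 CPM in naive, vehicle and GV1001 libraries. Gm2a, the activator that presents GM2 ganglioside to hexosaminidase, had 99.4 ± 4.44, 163 ± 67.4 and 126 ± 15.5 CPM, with every EAE library above the naive ones. The acid ceramidase Asah1 had 25.9 ± 1.96, 38.5 ± 8.67 and 29.3 ± 1.09 CPM, again with no overlap between naive and EAE. Ppt1, a palmitoyl-protein thioesterase lost in an infantile human ceroid lipofuscinosis, had 77.4 ± 0.32, 98.4 ± 13.2 and 80.2 ± 7.88 CPM. The acid sphingomyelinase Smpd1 had 89.3, 92.2 and 92.2 CPM in naive, 82.4, 90.1 and 102 CPM in vehicle, and 83.3, 99.4 and 88.6 CPM in GV1001 libraries, and the 3 groups lay on top of each other (log2 fold change in vehicle against naive -0.03 ± 0.10).

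Membrane proteins and granulin held both ends of the range. Cd68, a glycoprotein of phagocyte lysosomes and a common histological marker of them, had 4.81, 4.66 and 5.05 CPM in naive, 162, 12.6 and 65.0 CPM in vehicle, and 7.75, 24.3 and 11.5 CPM in GV1001 libraries. Every EAE library exceeded every naive library, and the log2 fold change in vehicle against naive, 4.03 ± 0.83 (a fold of 16.4, adjusted p = 0.0697, edgeR), was the largest of the 38. Laptm5, a lysosomal membrane protein, had 31.9, 35.2 and 45.5 CPM in naive, 387, 74.9 and 163 CPM in vehicle, and 38.9, 156 and 53.9 CPM in GV1001 libraries. Granulin (Grn), a secreted precursor that is delivered to lysosomes, had 44.5, 64.4 and 46.9 CPM in naive, 592, 73.2 and 158 CPM in vehicle, and 48.4, 188 and 93.8 CPM in GV1001 libraries. For Laptm5 and Grn the vehicle libraries were above the naive ones while GV1001 replicate 1 fell among them, with log2 fold changes in vehicle of 2.46 ± 0.62 and 2.40 ± 0.70 (adjusted p = 0.0777 and 0.1, edgeR), and of 1.61 and 1.10 without vehicle replicate 1. The abundant membrane glycoprotein Lamp1 had 644 ± 26.4, 919 ± 139 and 740.1 ± 58.4 CPM in naive, vehicle and GV1001 libraries, and its EAE libraries did not overlap the naive ones. Its relative Lamp2, which also serves chaperone-mediated autophagy, had 119.7 ± 18.0, 194.5 ± 67.1 and 141 ± 34.5 CPM. The tetraspanin Cd63 had 265 ± 24.4, 536 ± 235 and 315.5 ± 102 CPM.

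The remaining 3 membrane proteins had the smallest changes of their class. Scarb2, the receptor that carries glucocerebrosidase to lysosomes, had 355 ± 13.2, 419 ± 38.9 and 368 ± 33.6 CPM in naive, vehicle and GV1001 libraries. Npc1, which exports cholesterol from the lysosome, had 124.5, 139.8 and 129 CPM in naive, 142, 105 and 127 CPM in vehicle, and 112, 128 and 132 CPM in GV1001 libraries. Mcoln1, the calcium channel TRPML1, had 11.8, 13.6 and 12.4 CPM in naive, 16.3, 12.8 and 9.59 CPM in vehicle, and 9.26, 8.64 and 13.9 CPM in GV1001 libraries. Groups overlapped for Npc1 and Mcoln1, with log2 fold changes in vehicle against naive of -0.10 ± 0.13 and 0.00 ± 0.26.

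Because the libraries of 1 group differed so much in phagocyte markers, each gene was also tested for a slope on the phagocyte score among libraries of the same group, with the 3 group means fitted beside it. A slope of 1 means that the gene rose as steeply as the markers themselves. Of the 38 genes, 26 rose with the score and 0 fell at an adjusted p below 0.05 (edgeR), in a table where 10.6% of all genes rose and 6.26% fell. These were 9 of 10 proteases, 7 of 9 membrane proteins and granulin, 7 of 13 glycosidases and sulfatases, and 3 of 6 lipid hydrolases and activators. The median slope was 0.33 over the 38 genes, 0.50 over the proteases and 0.15 over the lipid hydrolases and activators. Cd68 had a slope of 1.08 ± 0.09 (adjusted p = 5.48e-07), Grn of 0.99 ± 0.07 (5.74e-08), Ctsc of 0.94 ± 0.06 (4.08e-08) and Laptm5 of 0.86 ± 0.05 (8.84e-09), all in edgeR's fit. These 4 lay near the slope of the markers, and Ctsz (0.85 ± 0.06), Ctsh (0.84 ± 0.06), Naglu (0.82 ± 0.15) and Ctsd (0.81 ± 0.07) just below. A middle range held Man2b1 at 0.64, Ctsa at 0.57, Hexa at 0.47, Cd63 at 0.46, Ctsk at 0.44, Gusb at 0.43, Lipa at 0.40, Ctsb and Gla at 0.39, Ctsl at 0.36 and Lamp2 at 0.35. Shallow slopes that still passed were those of Gm2a at 0.31, Lgmn at 0.29, Glb1 at 0.28, Fuca1 at 0.23, Lamp1 at 0.14, and Npc1 and Ppt1 at 0.13. Without vehicle replicate 1 the slopes of Naglu, Gla and Gm2a were 0.50, 0.15 and 0.17 and no longer passed (adjusted p = 0.186, 0.642 and 0.0886, edgeR). Nor did those of Ctsk, Gusb, Glb1, Fuca1, Lamp1, Npc1 and Ppt1 pass there. Over the fits that each left out 1 library, Npc1 lost its call in 6, and Gla and Ppt1 in 5 each.

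**Figure D3:**
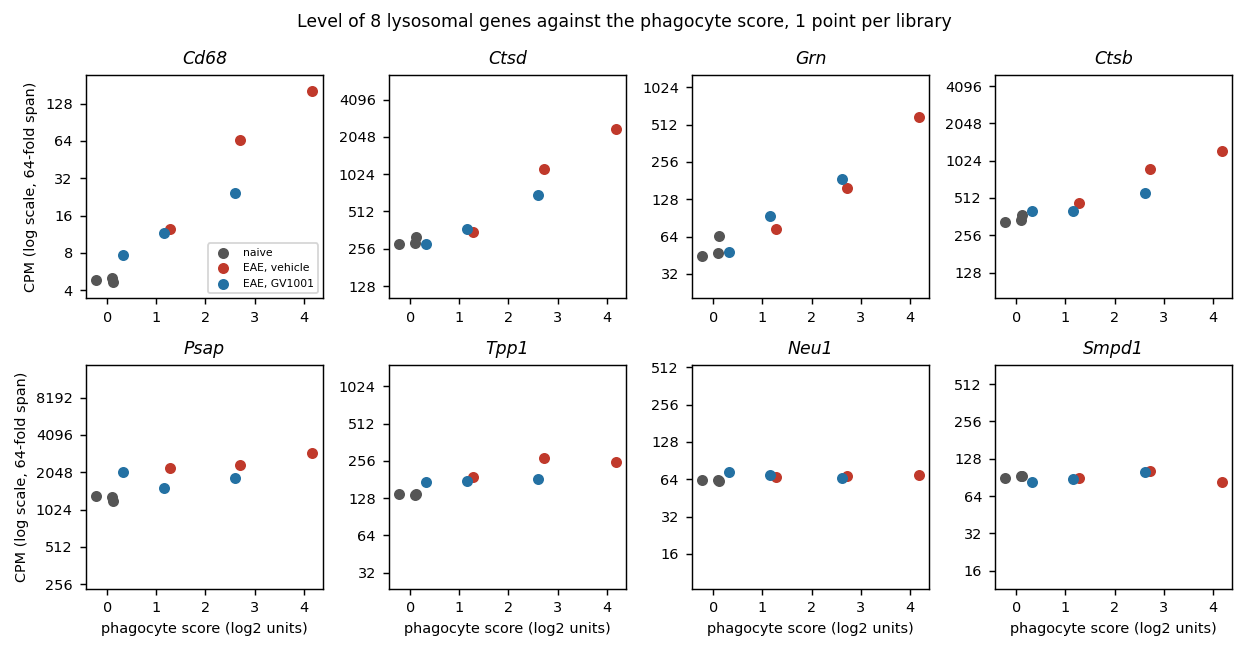
Level (CPM, log axis with the same span in each panel) of 8 members against the phagocyte score of the library (log2 units), 1 point per library, coloured by group. Cd68, Ctsd, Grn and Ctsb climb with the score, while Psap and Tpp1 separate the groups with little slope inside them and Neu1 and Smpd1 are level.

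**Figure D4:**
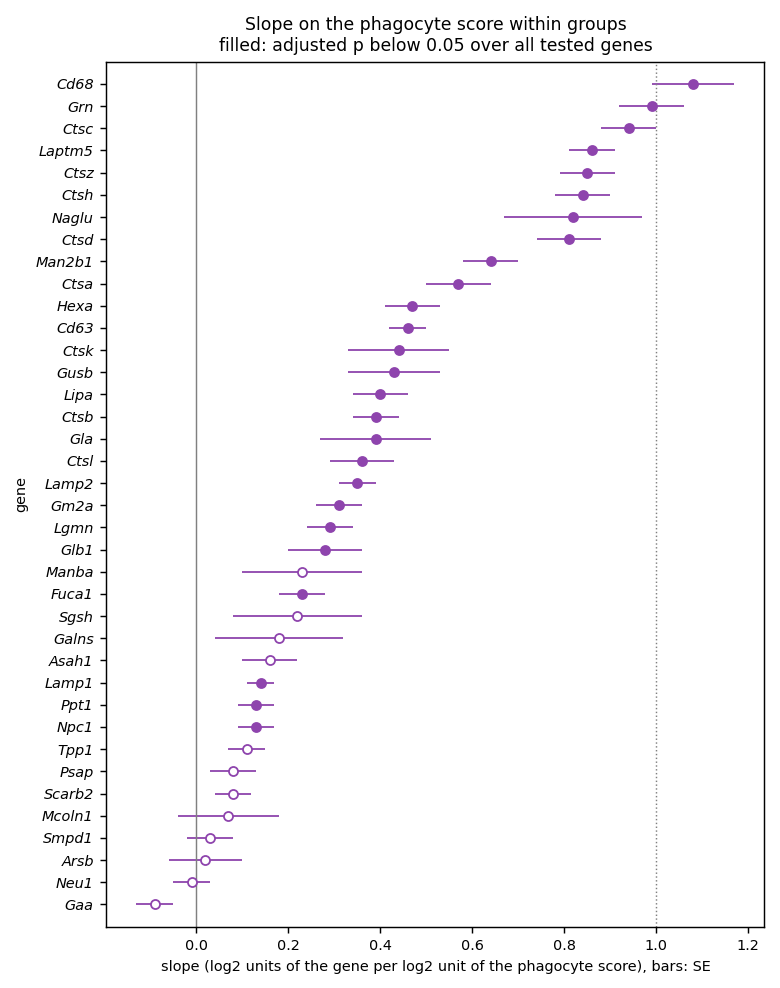
Slope of each of the 38 genes (log2 units per log2 unit of the phagocyte score) within groups, with standard errors as bars, a dotted line at 1 and filled points for an adjusted p below 0.05 in edgeR. Filled points number 26, all above 0, from Cd68 at 1.08 down to Npc1 and Ppt1 at 0.13.

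The number of members that rose depended in part on vehicle replicate 1. Over the 6 EAE libraries alone, 22 members rose, where 8.64% of all genes did. Without vehicle replicate 1, 16 rose, where 4.06% of all genes did: Ctsa, Ctsb, Ctsc, Ctsd, Ctsh, Ctsl, Ctsz, Lgmn, Lamp2, Cd68, Cd63, Laptm5, Grn, Hexa, Man2b1 and Lipa. Without vehicle replicate 2, 17 rose, where 6.63% of all genes did. The score and the members come from the same libraries, and T cell markers moved with the score too, 3 of the 3 tested rising with it. Red cell markers fell with it, 5 of 5, as did 5 of 8 neuron markers. With the muscle and Schwann cell scores fitted beside the phagocyte score, an alternative chosen after seeing the data, 14 members rose, where 3.24% of all genes did.

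The 12 genes whose slope did not pass were Galns, Manba, Sgsh, Arsb, Gaa, Neu1, Asah1, Psap, Smpd1, Tpp1, Scarb2 and Mcoln1. Neu1 had a slope of -0.01 ± 0.04 (SE), Smpd1 of 0.03 ± 0.05, Psap of 0.08 ± 0.05, Scarb2 of 0.08 ± 0.04 and Gaa of -0.09 ± 0.04. Errors were wider for Galns (0.18 ± 0.14), Sgsh (0.22 ± 0.14), Manba (0.23 ± 0.13) and Mcoln1 (0.07 ± 0.11). Asah1 (0.16 ± 0.06, adjusted p = 0.0984) and Tpp1 (0.11 ± 0.04, adjusted p = 0.116) also missed the threshold in edgeR's test. Arsb had a slope of 0.02 ± 0.08.

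Psap and Tpp1, singled out after their values were seen, had a higher level in all 6 EAE libraries than in any naive library, and slopes on the score that did not pass. Asah1, Galns and Neu1 had both traits too, so the pair was not distinct in this. In the fit with the score, which compares groups at an equal score, Psap was higher in vehicle than in naive by a log2 fold change of 0.73 (adjusted p = 0.0581, edgeR) and in both EAE groups together by 0.56 ± 0.15 (adjusted p = 0.0685). Tpp1 was higher in both EAE groups together by 0.33 ± 0.12 (adjusted p = 0.181, edgeR). Gaa, whose EAE and naive libraries overlapped, was higher by 0.29 ± 0.10 (adjusted p = 0.165, edgeR). Galns, Neu1 and Asah1 had 0.44 ± 0.44, 0.11 ± 0.12 and 0.01 ± 0.18 in the same comparison. No member passed in this fit in edgeR, where 1.62% of all genes did in both EAE groups against naive. At an unadjusted p of 0.05, 3 members were higher (Psap, Tpp1 and Gaa), which is near the share of 8.14% of all genes. Lower were 7, against 8.6% of all genes: Ctsa, Ctsd, Lamp2, Cd63, Man2b1, Npc1 and Grn. Among them Cd63 had -0.40 ± 0.11 (adjusted p = 0.0755, edgeR) and Grn -0.67 ± 0.20 (adjusted p = 0.102, edgeR). The median of the 38 log2 fold changes of both EAE groups against naive was -0.18, and 11 were above 0. The comparison at an equal score leans on little overlap, since GV1001 replicate 1 (0.31) was the EAE library nearest the naive range of -0.22 to 0.12.

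**Figure D5:**
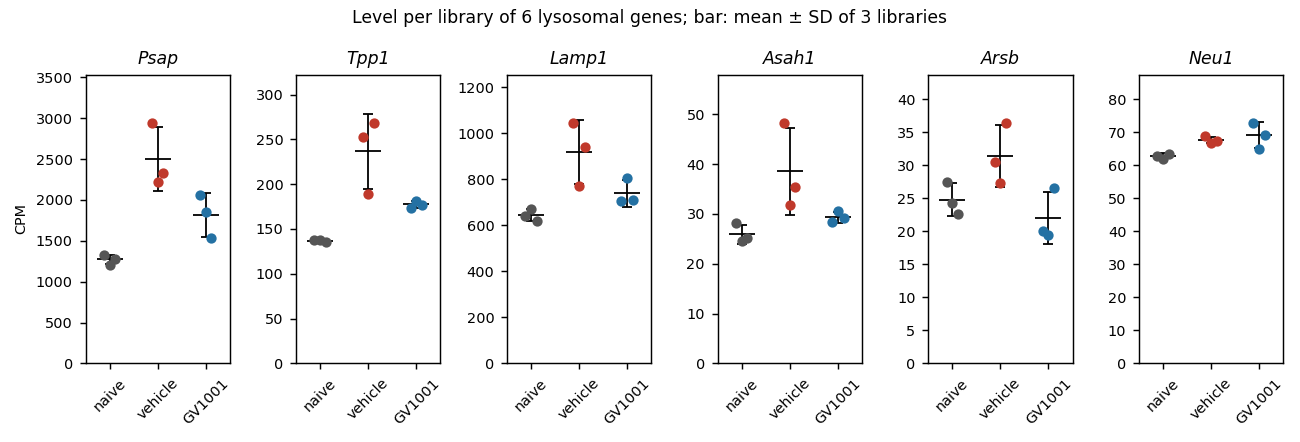
Level (CPM, axes from 0) of Psap, Tpp1, Lamp1, Asah1, Arsb and Neu1 in each library of the 3 groups, with the mean and SD of the group in black. Psap separates the 3 groups between 1208 and 2946 CPM, the GV1001 libraries of Asah1 and Arsb lie below the vehicle libraries, and Neu1 stays between 61.8 and 72.9 CPM.

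GV1001 against vehicle compares the EAE groups with and without the peptide. Their summed muscle markers differed too, with 367 to 3870 CPM against 18.7 to 452 CPM. No member passed the adjusted threshold in edgeR, DESeq2 or limma-voom, and 0.0%, 0.0847% and 0.0% of all genes did. At an unadjusted p of 0.05 in edgeR, 16 members were lower and 0 higher, against 4.51% of all genes lower. The median log2 fold change of the members was -0.51, and 36 of 38 were below 0. Cd68 was lowest relative to vehicle, at -2.48 ± 0.71, followed by Ctsd at -1.54 ± 0.55 and Ctsz at -1.47 ± 0.56. Ctsb had -0.93 ± 0.28, and the lowest adjusted p among the members was 0.528 in edgeR. The sizes depended on vehicle replicate 1: without it the median was -0.17, 5 members were lower at an unadjusted p of 0.05 (2.61% of all genes), and Cd68, Ctsd, Ctsz and Ctsb had -1.40, -0.69, -0.64 and -0.55.

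The GV1001 and vehicle libraries did not overlap for 4 members, all lower with GV1001: Psap, Tpp1, Asah1 and Arsb, where 5.03% of all genes were lower without overlap. None of the 4 was among the genes that rose with the phagocyte score. The score itself overlapped between the groups, with 1.28 in vehicle replicate 2 and 2.61 in GV1001 replicate 2. A gene that followed the score closely would therefore overlap too, so their absence decides nothing about the peptide. Arsb had 30.5, 27.2 and 36.4 CPM in vehicle and 20.0, 19.4 and 26.6 CPM in GV1001 libraries, a log2 fold change of -0.51 ± 0.17. Asah1 had 48.3, 31.8 and 35.4 CPM in vehicle and 28.3, 30.5 and 29.15 CPM in GV1001 libraries, a log2 fold change of -0.39 ± 0.17. Psap had -0.46 ± 0.15 and Tpp1 -0.41 ± 0.12. Without vehicle replicate 1 the 4 had -0.50, -0.17, -0.30 and -0.34 in the order Arsb, Asah1, Psap and Tpp1. The comparison shares the vehicle libraries with that of vehicle against naive, so the values of the 2 comparisons are not independent. At an equal phagocyte score the median of the members was -0.05, and with the muscle and Schwann cell scores as covariates it turned to 0.26, with 0 members past the threshold.

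In GV1001 against naive no member passed in edgeR, DESeq2 or limma-voom, and 0.0%, 0.254% and 0.0% of all genes did. At an unadjusted p of 0.05 in edgeR, 3 were higher (Ctsc, Psap and Tpp1) and 0 lower, against 4.35% of all genes higher, and limma-voom had 2 (3.21% of genes). Those in edgeR had log2 fold changes of 1.81 ± 0.74, 0.48 ± 0.15 and 0.35 ± 0.12. The GV1001 libraries lay above the naive ones for 12 members, against 10.2% of all genes, and the median of the 38 was 0.30. With the muscle and Schwann cell scores as covariates edgeR called 4 members higher (2.12% of genes) and the median was 1.07. The muscle score was 2.12 to 5.78 in GV1001 and -1.22 to 2.03 in naive libraries. The Schwann cell score was 0.852 to 1.325 and -0.308 to 0.269 in the same order. These groups overlapped in neither score, so the adjusted comparison rests on extrapolation. The highest summed level of muscle markers, 3870 CPM, was in a library of this group.

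Both EAE groups together against naive gave 0 members past the threshold in edgeR, against 0.00651% of all genes, 7 in DESeq2, against 3.0% of genes higher there, and 0 in limma-voom, against 0.0%. At an unadjusted p of 0.05, 20 were higher in edgeR, against 8.81% of all genes, and 12 in limma-voom, against 5.93%. With the muscle and Schwann cell scores as covariates edgeR called 22 higher, against 5.77% of all genes. All 6 EAE libraries lay above all 3 naive libraries for 12 members, against 5.25% of all genes. These 12 were Ctsb, Ctsc, Ctsh, Tpp1, Hexa, Galns, Neu1, Asah1, Psap, Gm2a, Lamp1 and Cd68. The smallest adjusted p was that of Psap, 0.137 in edgeR, with a log2 fold change of 0.72 ± 0.13.

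Lysosome genes outside the 38 were tested for a slope in the same fit. Of 31 other lysosomal hydrolases, 11 rose with the score and 0 fell, against 10.6% and 6.26% of all genes, with a median slope of 0.17. The most abundant, cathepsin S (Ctss), the cysteine protease of antigen-presenting cells, had 92.3, 97.7 and 108 CPM in naive, 2821, 339 and 883 CPM in vehicle, and 127, 832 and 201 CPM in GV1001 libraries, a slope of 1.12 ± 0.05 (adjusted p = 4.36e-10, edgeR). Acp5, the tartrate-resistant phosphatase of osteoclasts and macrophages, had 28.9 CPM in vehicle replicate 1 and 0 to 6.88 CPM elsewhere. Of 27 other membrane proteins tested, 11 rose and 2 fell, with a median slope of 0.11. Gpnmb, a glycoprotein of lipid-laden macrophages, had 2.14, 3.62 and 3.61 CPM in naive, 279, 1.52 and 136 CPM in vehicle, and 2.83, 27.1 and 4.70 CPM in GV1001 libraries, so vehicle replicate 2 lay below the naive group. Laptm4a, the most abundant of that list, had a slope of 0.00 ± 0.04.

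The machinery around the enzymes was described in the same way. Of 18 tested subunits of the proton pump that acidifies the lysosome, 3 rose with the score and 4 fell, with a median slope of 0.00. The shares over all genes were again 10.6% and 6.26%, here and for the next 3 lists. Tcirg1, the pump subunit of osteoclasts and phagocytes, rose (0.62 ± 0.07), and Atp6v1a, a catalytic subunit abundant in neurons, fell (-0.15 ± 0.03, adjusted p = 0.00532, edgeR). Of 12 genes that tag and sort lysosomal enzymes, 1 rose, which is near the share over all genes. It was Nagpa (0.41 ± 0.07), which uncovers the mannose 6-phosphate tag, and Vps35 of the retromer had -0.07. Of 7 tested cathepsin inhibitors, 5 rose, with a median slope of 0.45. Cst3, cystatin C, had 1354, 1263 and 1341 CPM in naive, 2017, 1450 and 2144 CPM in vehicle, and 1417, 1682 and 1494 CPM in GV1001 libraries. Cst7, cystatin F of leukocytes, had 0.53, 0.17 and 0 CPM in naive, 106, 1.33 and 26.1 CPM in vehicle, and 0, 19.9 and 2.10 CPM in GV1001 libraries. Of 9 tested genes that control lysosome transcription, 4 rose, namely Tfeb (0.46), Fnip2 (0.36), Tfe3 (0.33) and Mitf (0.27), and Rragd fell (-0.18). Without vehicle replicate 1 the genes that rose numbered 7, 5, 3, 1, 3 and 2 in these 6 lists, against 4.06% of all genes. Among the 38 genes themselves, TCACGTGA was in the promoter window of 3 of the 23 with a window whose slope passed and 1 of the 10 whose slope did not. GAGGAAGT was in 3 of 23 and 0 of 10.

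Among the genes most like the mean log2 CPM of the members over the 9 libraries, of 15313 others, were Itm2b (Pearson r 0.994), Myof (0.99), AB124611 (0.989) and Eef1a1 (0.989). The 9 libraries share 3 groups and the spread in phagocyte markers, so these values are a description. Itm2b, an abundant membrane protein, had 618 to 636 CPM in naive, 704 to 1210 CPM in vehicle and 682 to 823 CPM in GV1001 libraries.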

How the data were processed

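RNA of 9 spinal cord samples was sequenced with QuantSeq 3′ libraries, per the labels' protocols, after extraction with TRIzol or a Maxwell RSC kit, and which sample had which is not stated. The authors deposited raw counts of reads for each gene symbol, and named FastQC, STAR, HTSeq and build GRCm39 per the submitters' processing notes. Files of single libraries held the same counts as the table. Here genes were filtered with filterByExpr (minimum count 10), normalised by TMM and tested with edgeR 4.0.16 (quasi-likelihood F test, R 4.3.3) in a fit of all 9 libraries, with p adjusted by the Benjamini-Hochberg method over 15351 genes and a threshold of 0.05. Standard errors come from the F statistic. The slope fit added the phagocyte score (mean log2 CPM, prior count 2). The fits were tested on simulated data. The members and lists were chosen with earlier results of these data known. Levels are given per library for the 12 largest and 6 smallest changes in vehicle against naive, with Psap, Tpp1, Asah1 and Arsb added after their values were seen. DESeq2 1.42.0, limma-voom (limma 3.58.1), other filters, scalings, covariates and leaving out each library were alternatives. With group means taken out, libraries with the same number correlated above 0.1 in 2 of 9 pairs, so replicate numbers were not taken to pair samples. Ends of transcripts (400 bases) were compared with GENCODE M21 transcripts at 95% identity or more over at least 100 bases. The genes most like the members were the 5 with the highest Pearson correlation, of which 1 is not reported here.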

Additional observations from a re-analysis of the deposited data

How the results depend on the processing

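In vehicle against naive the count of members past the threshold, 0, was 15 in DESeq2, 2 with library totals only, 13 with no low-count filter, 24 with muscle and Schwann cell scores as covariates and 12 at a threshold of 0.1. Leaving out each library gave 0 to 28, with 28 without vehicle replicate 2. For both EAE groups against naive it was 7 in DESeq2, 1 with no low-count filter, 22 with the muscle and Schwann scores and 0 to 13 without each library. For GV1001 against naive it was 4 with those scores, in which these groups did not overlap, and 0 without any library. The count of slopes past the threshold, 26, was 14 with those scores (chosen after seeing the data) and 16 to 26 without each library. With the phagocyte score as a covariate the median log2 fold change turned from 0.79 to -0.20 in vehicle against naive, from 0.30 to -0.21 in GV1001 against naive, from 0.56 to -0.18 in both EAE groups, and from -0.51 to -0.05 in GV1001 against vehicle. With muscle and Schwann scores it was 0.26 in GV1001 against vehicle, 1.07 in GV1001 against naive and 0.92 in both EAE groups, and the median slope was 0.26. The cause was not tested. Leaving out each library moved the medians over 0.44 to 1.01, -0.73 to -0.17, 0.13 to 0.39 and 0.38 to 0.66 in vehicle against naive, GV1001 against vehicle, GV1001 against naive and both EAE groups, and over 0.25 to 0.38 for the slope. The sign of some members turned with a library left out. In vehicle against naive these were Gla (-0.05 to 0.77), Manba (-0.20 to 0.41), Smpd1 (-0.09 to 0.02), Npc1 (-0.23 to 0.02), Sgsh (-0.13 to 0.30) and Mcoln1 (-0.24 to 0.20). In GV1001 against vehicle these were Gla (-0.47 to 0.35), Naglu (-1.29 to 0.33), Manba (-0.43 to 0.19), Smpd1 (-0.08 to 0.05), Npc1 (-0.14 to 0.12), Gm2a (-0.62 to 0.03) and Neu1 (-0.01 to 0.08). In GV1001 against naive these were Cd63 (-0.04 to 0.42), Manba (-0.13 to 0.05), Smpd1 (-0.11 to 0.01), Ppt1 (-0.06 to 0.07), Scarb2 (-0.04 to 0.09) and Sgsh (-0.25 to 0.08). In both EAE groups they were Manba (-0.11 to 0.20), Arsb (-0.02 to 0.14) and Sgsh (-0.15 to 0.14), and for the slope Smpd1 (-0.01 to 0.11), Psap (-0.03 to 0.16), Neu1 (-0.06 to 0.02), Arsb (-0.10 to 0.09) and Mcoln1 (-0.15 to 0.20).

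With the replicate number as a block, 0 members passed in each comparison of groups, with a median of 0.77 in vehicle against naive, and 24 slopes passed, so the replicate block changed the count of slopes by 2 and no other count. The fit of only the groups compared is the same as the fit of all libraries for both EAE groups, so it gave no further value.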
